A study of Homo sapiens with 24 samples.

Results

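The zinc finger genes with symbols from ZNF500 to ZNF799 were followed across 24 RNA-seq libraries of the ovarian cancer cell lines PEO1 and PEO4. Members were every row of both deposited count tables whose symbol was ZNF and 3 digits starting with 5, 6 or 7, which gave 207 of 28277 genes. In each table, 194 of the 207 had enough counts to be tested, and the same 13 were left untested in both. Among the untested genes, ZNF683, ZNF707 and ZNF735 had no read in any library, and ZNF536 had at most 1 count. ZNF676 reached the highest count among the 13, 15 reads.

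Most human ZNF genes encode C2H2 proteins, in which a chain of small zinc-bound fingers reads a DNA sequence. A large share also carries a KRAB domain, which recruits TRIM28 and through it the methyltransferase SETDB1 and HP1 proteins, so that bound DNA, often a transposable element, is packed into H3K9me3 heterochromatin. KRAB zinc finger genes lie in clusters, mainly on chromosome 19, and their transcripts are in general scarce and short-lived.

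PEO1 and PEO4 are patient-derived high-grade serous ovarian carcinoma lines, established before and after resistance to chemotherapy. The A pair comprised untreated PEO1, BRCA2 deficient by the design text although its genotype label reads WT, and untreated PEO4, in which BRCA2 is functional, with 3 libraries each, and sodium pyruvate was added to the medium for this pair only. The B pair comprised PEO1 BRCA2+, a PEO1 derivative whose BRCA2 was restored by spontaneous reversion, and PEO4. Each B line was untreated or exposed to 5 µM pyridostatin (PDS), a small molecule that binds G-quadruplexes (G4s), for 2 h or 6 h, with 3 biological replicates per condition. Both lines come from a single patient, PEO1 BRCA2+ is a derived line, and no solvent-only group was among the labels used here.

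Depth was 32.5 to 63.9 M gene counts in the A libraries. In the B set every PDS library (33.3 to 43.7 M) was deeper than every untreated library (18.7 to 22.4 M). Reads on ribosomal RNA genes made up 0.217% to 0.4735% of counts in the 6 untreated B libraries and 0.01635% to 0.0369% in the 12 PDS libraries, so this library difference and the treatment cannot be told apart. All 13 ovarian carcinoma markers averaged over 1 CPM (the TMM-scaled counts-per-million level) in every group, whereas 1 of 5 leukocyte markers did. That was CD68, also a lysosomal gene of other cells, whose group means ran from 24.9 to 72.4 CPM and stood at 42.4 CPM in untreated PEO4 of the B pair and at 72.4 CPM at 2 h and 6 h of PDS. PTPRC and CD3E stayed at or near 0 in every group and CSF1R below 0.5 CPM. The summed level of 6 fibroblast markers in untreated PEO4 of the B pair, 36.3 to 38.6 CPM, was above the 3.7 to 4.91 CPM after 6 h of PDS, and its part in the results was not tested. BRCA2 transcript levels, 8.24 CPM ± 0.297 in PEO1 and 13.5 CPM ± 2.44 in PEO4 of the A pair (SD, n = 3), do not read out a point mutation.

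Of the 205 members with a translated protein, 129 (62.9%) held a KRAB pattern, and 108 of the 207 (52.2%) lay on chromosome 19, where 6.4% of all genes with a position lay. The median number of C2H2 fingers was 10, and the range ran from 0 to 39. The finger pattern was not found in ZNF503, ZNF703 and ZNF750. At 110 loci the gene overlapped another annotated gene, and in 21 members more than 10% of 100-base words of the transcript recurred in another gene's transcript. Counts of the latter, among them ZNF709 (92.2%), ZNF564 (84.2%), ZNF625 (74.5%), ZNF763 (46.0%) and ZNF514 (31.5%), are uncertain because the counting could split or discard shared reads.

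Members were expressed at low levels. Per kilobase of exon, the 193 tested members with a length had a median of 2.62 CPM in the A table, where all tested genes had a median of 4.15 CPM, and of 1.78 CPM in the B table against 3.68 CPM. ZNF503, a member of the NET family of corepressors, led both tables with 61.7 CPM per kilobase in A and 56.5 in B. ZNF664, ZNF598, ZNF768 and ZNF787 filled the next places in the B table between 26.1 and 32.9 CPM per kilobase. ZNF598 encodes the ubiquitin ligase that marks collided ribosomes. Together the 207 genes took 0.475% ± 0.00265 of all counts in PEO1 and 0.548% ± 0.0244 in PEO4 of the A pair (SD, n = 3), and 0.399% ± 0.00656 in PEO1 BRCA2+ and 0.477% ± 0.0166 in PEO4 of the B pair.

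The first comparison asked how PEO4 differed from PEO1 in the A pair. Higher transcript levels in PEO4 prevailed among these zinc finger genes, although most differences were small. A call required an edgeR quasi-likelihood p, adjusted over all tested genes, below 0.05 together with an absolute log2 fold change above 1. By that rule 16 of 194 members were called higher in PEO4 and 4 lower, that is 8.25% and 2.06%, where 12.6% and 13.1% of all tested genes were called. With the adjusted p alone, 78 members were higher and 25 lower (40.2% and 12.9%), where 30.1% and 31.6% of all genes were. The median log2 fold change was 0.19 over the members and -0.01 over all genes, and 89.7% of members against 73.2% of genes differed by less than 2-fold. In bulk RNA a gene expressed in fewer cells and a gene with less RNA per cell cannot be told apart.

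ZNF711, an X-linked regulator that binds CpG-rich promoters together with PHF8, was among the genes furthest apart in the A pair. Its level was 2.43, 2.03 and 2.22 CPM in the PEO1 libraries and 21.8, 21.7 and 21.2 CPM in PEO4, 9.66-fold higher (log2 fold change 3.27, SE 0.129, edgeR adjusted p = 5.6e-10). ZNF750, which drives terminal differentiation of squamous epithelium, stood at 0.648, 0.427 and 0.601 CPM in PEO1 and at 3.62, 3.4 and 4.53 CPM in PEO4 (log2 fold change 2.76, SE 0.263, edgeR adjusted p = 1.5e-06). No library of one line reached the range of the other for either gene, which the rule for naming genes required. ZNF704 differed by 2.11 on the log2 scale (SE 0.0806), ZNF572 by 1.41 (SE 0.109), the NET corepressor ZNF703 by 1.27 (SE 0.202) and the KRAB gene ZNF610 by 1.26 (SE 0.132), all higher in PEO4 and all called. ZNF775 was the most reduced member with a mean log2 CPM of at least 0, at 12.6, 11.6 and 13.2 CPM in PEO1 and 4.04, 5.05 and 4.38 CPM in PEO4 (log2 fold change -1.49, SE 0.141, edgeR adjusted p = 1.5e-06). ZNF727 and ZNF608 were lower too, with log2 fold changes of -1.09 and -1.06, and the stem cell factor ZNF521 (-1.57, SE 0.37) completed the 4 lower calls at 1.45 CPM in PEO1 and 0.504 CPM in PEO4.

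The same question was then put to the untreated B pair, where both lines carry functional BRCA2. Again the members sat above the rest of the genes in PEO4. In this comparison 22 members were called higher and 7 lower (11.3% and 3.61%), where 12.2% and 12.6% of all genes were called. On the adjusted p alone 107 members were higher and 30 lower (55.2% and 15.5%), where 34.0% and 34.6% of all genes were. The median log2 fold change was 0.34 over members and 0.00 over all genes. The other numbered ZNF genes, 258 of 271 tested, moved to a similar place, with a median of 0.28 and 134 higher against 38 lower, and in the A pair with a median of 0.22, with 112 higher against 36 lower on the adjusted p alone.

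**Figure D1:**
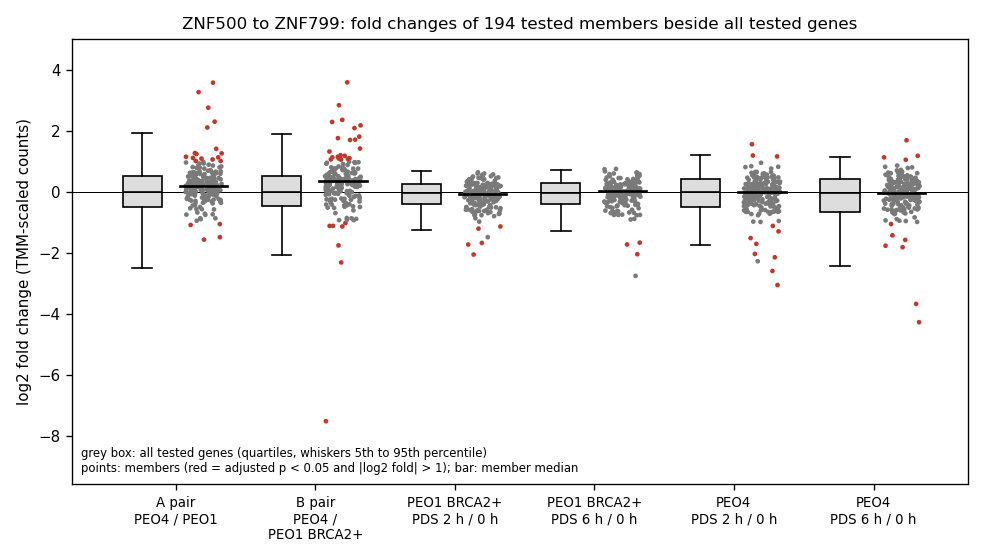
Log2 fold changes (y axis) of the 194 tested members, as points, beside a box of all tested genes for 6 comparisons (x axis). Member medians (black bars) lie at 0.19 and 0.34 in the 2 line comparisons and between -0.06 and 0.02 in the 4 PDS comparisons, and the isolated low point of the B pair is ZNF727 at -7.53.

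ZNF750 showed the largest rise of the B pair, from 0.383, 0.868 and 0.79 CPM in PEO1 BRCA2+ to 8.18, 8.84 and 8.06 CPM in PEO4 (log2 fold change 3.59, SE 0.262, edgeR adjusted p = 7.8e-12). ZNF517, a KRAB gene on chromosome 8, measured 2.73, 2.85 and 2.37 CPM in PEO1 BRCA2+ and 18.6, 16.8 and 21.7 CPM in PEO4 (log2 fold change 2.84, SE 0.151, edgeR adjusted p = 1.6e-14). ZNF503, already the strongest expressed member, rose from 103 CPM ± 6.39 to 465 CPM ± 37.2 (SD, n = 3), with libraries at 98.3 to 110.0 CPM and 433.0 to 506.0 CPM (log2 fold change 2.18, SE 0.0665, edgeR adjusted p = 3.7e-19). All 3 genes separated the lines without overlap, which the rule for naming genes required. ZNF610 (2.36, SE 0.22), ZNF711 (2.29, SE 0.137) and ZNF623 (2.09, SE 0.156) followed on the log2 scale. The annotated ZNF503 locus contains the antisense genes ZNF503-AS1 and ZNF503-AS2 and ZNF750 lies within TBCD, and whether the counting used strand is not given in the sources used here.

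Among the lower members, ZNF608 stood at 41.4, 50.3 and 41.3 CPM in PEO1 BRCA2+ and 9.22, 8.99 and 8.48 CPM in PEO4 (log2 fold change -2.32, SE 0.0881, edgeR adjusted p = 2.5e-17). ZNF778, ZNF639 and ZNF532 were lower by similar amounts, with log2 fold changes of -1.14, -1.12 and -1.12. ZNF532 belongs with ZNF592 and ZNF687 to a chromatin complex around ZMYND8. ZNF697 (-1.03, SE 0.167) lay close to the fold threshold, and its log2 fold change came to -0.88 without PEO4 replicate 1, -0.9 without PEO1 BRCA2+ replicate 3 and -0.99 without PEO1 BRCA2+ replicate 1. ZNF727, a KRAB gene on chromosome 7, had 75, 92 and 77 counts in PEO1 BRCA2+ and 0, 1 and 0 counts in PEO4, a ratio of 233 with an exact 95% counting interval from 41.4 to 9230. In the A pair the library set labelled PEO4 did contain ZNF727, with 152, 90 and 90 counts against 282, 186 and 283 in PEO1. Levels were not compared across the separately scaled tables.

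The 2 untreated comparisons share no library. The same 8 members were called higher in PEO4 in both (4.12% of 194, where 6.59% of 15396 genes tested in both were), namely ZNF750, ZNF711, ZNF781, ZNF704, ZNF572, ZNF610, ZNF556 and ZNF671. The 3 members lower in both (1.55%, where 7.68% of genes were) were ZNF521, ZNF727 and ZNF608. On the adjusted p alone, 66 members were higher in both pairs (34.0%, where 20.7% of genes were) and 20 lower (10.3%, where 21.7% were). The sign agreed for 149 of 194 members (76.8%) and for 73.0% of all genes tested in both. ZNF781 rested on few reads, 2 counts in each PEO1 BRCA2+ library and 9, 4 and 7 in PEO4.

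**Figure D2:**
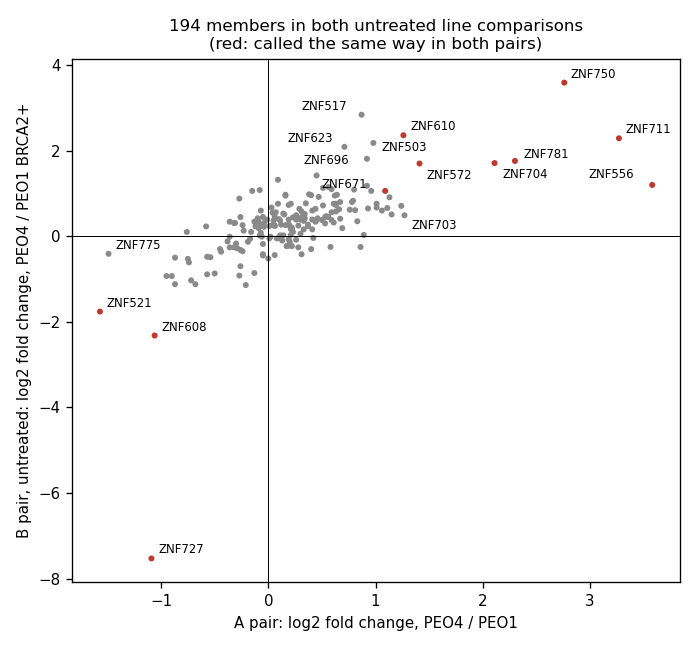
Log2 fold change of PEO4 over PEO1 in the A pair (x axis) against that of PEO4 over PEO1 BRCA2+ in the untreated B pair (y axis), 1 point per member. Red points are the 8 members called higher and the 3 called lower in both pairs, and ZNF517, ZNF503, ZNF623 and ZNF696 were called in the B pair alone.

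The members were also divided by chromosome. Of 101 tested members on chromosome 19, 60 were higher and 6 lower in PEO4 of the B pair on the adjusted p alone (59.4% and 5.94%), where 45.1% and 20.9% of the 1179 genes tested on that chromosome were. In the A pair 48 were higher and 4 lower (47.5% and 3.96%), where 29.1% and 25.6% of the chromosome's genes were. No chromosome 19 member passed the fold threshold downward in either pair, and neither an unadjusted p below 0.05 in edgeR nor DESeq2 gave one, with 0 in each. Of all genes tested on that chromosome, 6.94% were called lower in the A pair and 6.19% in the B pair. Upward, 8 of the 101 members were called in the A pair and 13 in the B pair, where 9.95% and 13.7% of the chromosome's genes were. Off chromosome 19, 47 of 93 members were higher and 24 lower in the B pair (50.5% and 25.8%), where 33.1% and 36.1% of the 15150 genes tested there were. In the A pair 30 were higher and 21 lower (32.3% and 22.6%), where 30.1% and 32.5% of 14195 genes were. On chromosome 8, 5 of 8 tested members were called higher in the B pair, ZNF517, ZNF623, ZNF696, ZNF704 and ZNF572, where 24.7% of the 551 genes tested there were, and 3 of 8 in the A pair, ZNF704, ZNF572 and ZNF703, where 15.9% were. The chromosome 8 group was singled out after its values were seen. ZNF623, ZNF696 and ZNF517 lie within a short stretch near the end of the long arm, at chr8:143636019-143653730, chr8:143291417-143299952 and chr8:144798913-144813513 of GRCh38. The other tested members on chromosome 8 were not called in the B pair. There ZNF703 was at 0.49, ZNF706 at 0.25 (SE 0.0589) and ZNF596 at -0.42 on the log2 scale.

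Members with and without the KRAB pattern were compared next. Median log2 fold changes in the B pair were 0.35 for 121 tested members with KRAB and 0.26 for 71 without, and in the A pair 0.23 and 0.13. Past the fold threshold in the B pair, 10 were called higher and 2 lower with KRAB (8.26% and 1.65%) and 11 and 5 without it (15.5% and 7.04%), where 12.2% and 12.6% of all genes were. In the A pair the calls were 9 and 1 with KRAB (7.44% and 0.826%) and 6 and 3 without it (8.45% and 4.23%), where 12.6% and 13.1% of all genes were.

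PDS was next compared with no treatment within each B line, to ask how the members respond when G4s are bound by a ligand. In PEO1 BRCA2+ few members moved far. After 2 h, 0 members were called higher and 5 lower (2.58%), where 1.18% and 6.39% of all genes were called. The 0 held in edgeR at an unadjusted p below 0.05 and in DESeq2, each with the fold threshold. On the adjusted p alone 29 were higher and 55 lower (14.9% and 28.4%), where 26.4% and 26.2% of genes were. With plain library totals instead of the TMM factors, which set the median of all genes between -0.19 and -0.13 on the log2 scale in the 4 comparisons with untreated cells (-0.03 to 0.00 under TMM), the members split into 12 higher and 78 lower. After 6 h, again 0 were called higher, by the same 3 counts, and 3 lower (1.55%), where 1.29% and 6.83% of genes were called, with 5 lower under library totals. On the adjusted p alone 34 were higher and 41 lower, where 27.0% and 26.0% of genes were. Library totals gave 16 higher and 62 lower and turned the member median from 0.02 to -0.13. Responses at 2 h and 6 h share the untreated libraries.

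ZNF560, a KRAB gene on chromosome 19, fell in PEO1 BRCA2+ from 1.68, 2.07 and 2.11 CPM untreated to 0.378, 0.569 and 0.805 CPM at 2 h and 0.57, 0.485 and 0.704 CPM at 6 h. Its log2 fold change was -1.73 (SE 0.266) at each time, with edgeR adjusted p = 6.7e-06 and 6.4e-06. The KRAB gene ZNF792 fell at 2 h from 4.22, 4.01 and 3.03 CPM to 1.13, 1.16 and 1.19 CPM (log2 fold change -1.68, SE 0.171) and stood at 1.84, 2.15 and 2.08 CPM at 6 h (-0.89, SE 0.16). ZNF623 fell by 1.21 at 2 h and by 1.67 at 6 h on the log2 scale. ZNF660 stood at -1.14 at 2 h, and at -0.92 without replicate 2 of the 2 h group. ZNF750 fell as well, with log2 fold changes of -2.06 and -2.05, from a level of 0.68 CPM ± 0.26 (SD, n = 3). The largest rise on the adjusted p alone was that of ZNF622, a factor of late 60S ribosomal subunit maturation chosen here for its role, with log2 fold changes of 0.64 (SE 0.0793) at 2 h and 0.75 (SE 0.079) at 6 h.

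In PEO4 members were called in both directions. At 2 h 3 members were called higher and 8 lower (1.55% and 4.12%), where 6.4% and 11.0% of all genes were called. At 6 h 4 were called higher and 7 lower (2.06% and 3.61%), where 6.26% and 16.3% of genes were, and with library totals 2 were called higher and 12 lower. The adjusted p alone gave 46 higher and 69 lower at 2 h, where 33.3% and 32.0% of genes were, and 53 higher and 51 lower at 6 h, where 34.6% and 35.2% were. Library totals gave 31 and 78 at 2 h and 34 and 75 at 6 h. As a group the members hardly moved, with medians of -0.02 at both times, and 94.3% of members against 75.7% of genes stayed within 2-fold at 6 h.

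ZNF750 fell furthest in PEO4. From 8.18, 8.84 and 8.06 CPM it came down to 1.25, 1.19 and 0.6 CPM at 2 h and 0.358, 0.519 and 0.419 CPM at 6 h, which is 8.32-fold and 19.4-fold lower (log2 fold changes -3.06, SE 0.23, and -4.28, SE 0.261, with edgeR adjusted p = 2.8e-11 and 4.6e-13). ZNF704 fell from 107.0, 50.6 and 130.0 CPM to 16.4, 16.6 and 14.6 CPM at 2 h and to 6.92, 8.42 and 7.15 CPM at 6 h (log2 fold changes -2.6, SE 0.26, and -3.68, SE 0.282). The middle untreated value belongs to replicate 2, and without it the log2 fold changes were -2.9 and -3.98. In the same library ZNF703 was at 34.2 CPM beside 59.9 and 60.0 CPM in the other untreated PEO4 libraries. ZNF703 fell to 15.4, 17.5 and 14.4 CPM at 2 h and 15.3, 15.8 and 14.3 CPM at 6 h (log2 fold changes -1.71 and -1.77, edgeR adjusted p = 6.4e-07 and 3.6e-07). Its untreated and treated libraries did not overlap, which the rule for naming genes required at 6 h.

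ZNF503, the second NET family gene, dropped from 465 CPM ± 37.2 to 162 CPM ± 9.02 at 2 h and 223 CPM ± 6.34 at 6 h (SD, n = 3), log2 fold changes of -1.52 (SE 0.0644) and -1.06 (SE 0.0636). ZNF623 came down from 11.8, 13.2 and 14.7 CPM to 2.78, 2.94 and 3.19 CPM at 2 h and 4.82, 5.19 and 4.73 CPM at 6 h (log2 fold changes -2.15 and -1.43). ZNF792 fell in PEO4 too, with log2 fold changes of -2.04 (SE 0.177) and -1.82 (SE 0.175). At 6 h its fall was larger than in PEO1 BRCA2+, by a difference of -0.93 (SE 0.237, edgeR adjusted p = 0.0023). Among the genes called lower in PEO4 were thus ZNF750, ZNF704, ZNF503 and ZNF623, whose untreated levels were also higher in PEO4 than in PEO1 BRCA2+, and both comparisons use the same untreated PEO4 libraries.

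Fewer members rose. ZNF644, which binds the H3K9 methyltransferases EHMT1 and EHMT2, rose in PEO4 from 43.8, 44.1 and 47.9 CPM to 105.0, 104.0 and 93.9 CPM at 2 h (log2 fold change 1.16, SE 0.0625, edgeR adjusted p = 6.3e-14) and stood at 65.0, 65.2 and 62.0 CPM at 6 h (0.5, SE 0.0627). ZNF556 rose from 0.647 CPM ± 0.21 to 1.93 CPM ± 0.151 and 2.11 CPM ± 0.265 (SD, n = 3), log2 fold changes of 1.56 and 1.69. ZNF560 rose to 3.44, 3.54 and 4.27 CPM at 2 h from 1.73, 1.26 and 1.93 CPM (log2 fold change 1.19, SE 0.217). At 6 h the KRAB genes ZNF514, ZNF569 and ZNF583 were higher by 1.18, 1.13 and 1.05 on the log2 scale. With library totals in place of TMM scaling the values of ZNF569 and ZNF583 were 0.97 and 0.89, below the fold threshold, and that of ZNF583 was 0.99 without replicate 3 of the 6 h group.

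**Figure D3:**
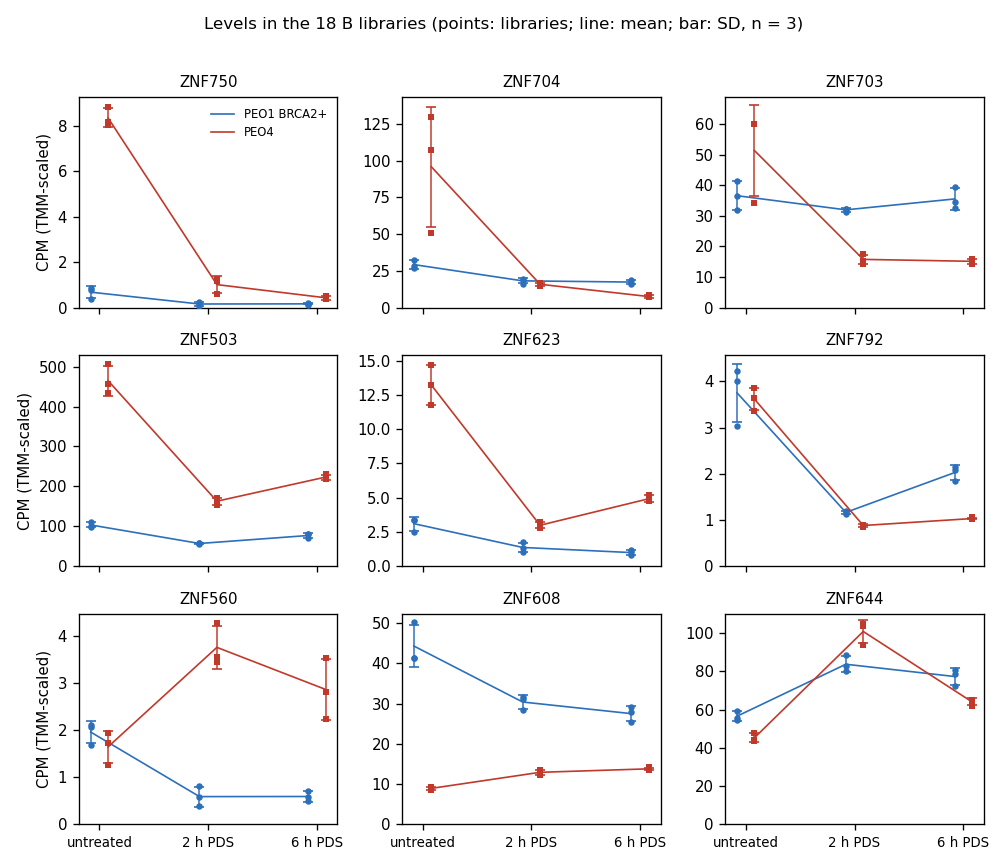
Levels in CPM (y axes, from 0) of 9 members in the 18 B libraries by PDS time (x axis), with points for libraries, lines for group means and bars for the SD of 3 replicates. ZNF750 and ZNF704 fall in PEO4 to 0.432 and 7.5 CPM at 6 h, ZNF560 and ZNF608 move in opposite directions in the 2 lines, and ZNF644 peaks at 101 CPM in PEO4 at 2 h.

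Between 2 h and 6 h of PDS, PEO1 BRCA2+ changed little. No member passed the fold threshold in either direction (0 higher and 0 lower, also at an unadjusted p below 0.05 and in DESeq2), where 0.0705% and 0.0999% of genes did, and 21 rose and 6 fell on the adjusted p alone, where 3.96% and 2.98% of genes did. In PEO4 3 members rose and 2 fell past the threshold (1.55% and 1.03%), where 2.27% and 9.71% of genes did. By adjusted p alone 65 rose and 49 fell, where 28.9% and 31.3% of genes did. ZNF514 went from 10.3, 11.0 and 11.3 CPM to 23.7, 22.9 and 26.4 CPM (log2 fold change 1.16, SE 0.0939), ZNF696 from 31.9, 31.7 and 26.2 CPM to 58.0, 62.9 and 63.7 CPM (1.04, SE 0.0725), and ZNF709 rose by 1.07. Without replicate 3 of the 2 h group ZNF696 came to 0.96 and ZNF709 to 0.95, which left 1 member called higher and 4 lower. The 2 that fell were ZNF750 (-1.22, SE 0.308) and ZNF704 (-1.08, SE 0.287).

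Whether the lines differed in their response was tested with the difference of both responses. At 2 h 3 members responded more positively in PEO4 and 2 more negatively (1.55% and 1.03%), where 6.1% and 4.92% of genes did, with 5 more positive under library totals. At 6 h the counts were 5 and 4 (2.58% and 2.06%), where 5.42% and 9.34% of genes did. The adjusted p alone gave 27 and 18 at 2 h, where 19.3% and 18% of genes were called, and 32 and 32 at 6 h, where 24.4% and 23% were. ZNF560 fell in PEO1 BRCA2+ and rose in PEO4, and the responses differed by 2.92 (SE 0.343, edgeR adjusted p = 3.1e-07) at 2 h and 2.53 (SE 0.346) at 6 h. ZNF608 moved in opposite directions too, with log2 fold changes of -0.54 and -0.69 in PEO1 BRCA2+ and 0.54 and 0.63 in PEO4, differences of 1.08 and 1.32. Without untreated PEO1 BRCA2+ replicate 2 the 2 h difference of ZNF608 was 0.97. ZNF704 and ZNF703 fell more in PEO4, by differences of -1.91 and -1.51 at 2 h and -2.93 and -1.72 at 6 h. For ZNF703 the response of PEO1 BRCA2+ was -0.2 (SE 0.167) and -0.04 (SE 0.167). ZNF554 differed by -1.32 and ZNF513 by 1.04 at 6 h, and the latter came to between 0.9 and 0.98 in 4 of the fits that left out 1 library, PEO1 BRCA2+ untreated replicate 1 (0.98) or 6 h replicate 3 (0.9), or PEO4 untreated replicate 1 (0.98) or 6 h replicate 3 (0.98).

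**Figure D4:**
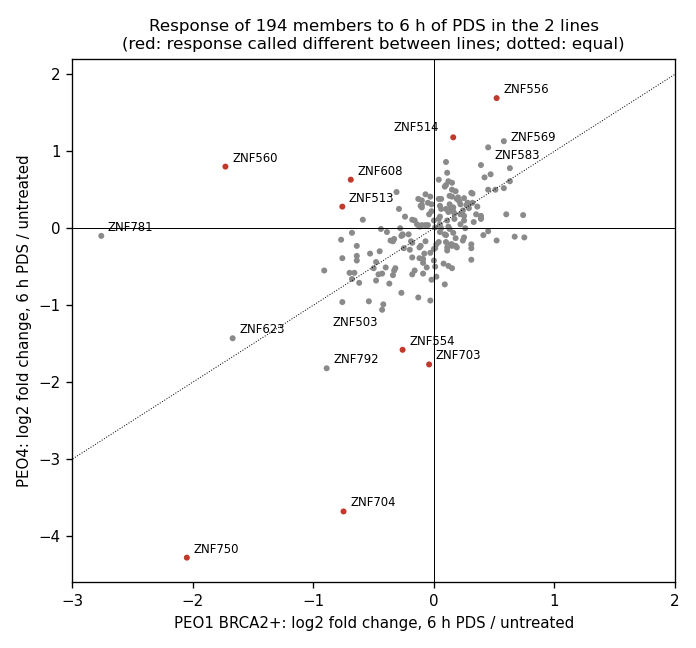
Log2 fold change after 6 h of PDS in PEO1 BRCA2+ (x axis) against PEO4 (y axis), 1 point per member, with a dotted line of equal response. The 9 red members responded differently in the lines by the interaction test, from ZNF704 (difference -2.93) to ZNF560 (2.53), and the grey point at the far left, ZNF781, rests on 2 or fewer counts per PEO1 BRCA2+ library.

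Members with a known role were followed whatever their values. In the ZMYND8-linked complex ZNF592 stayed between -0.28 and 0.22 on the log2 scale in the 2 line comparisons and 4 PDS comparisons, whereas ZNF687 was lower in PEO4 after 6 h (-0.84, SE 0.0574) and ZNF532 was lower in PEO4 than in either PEO1 line (-0.87 in A, -1.12 in B). ZNF638, which silences unintegrated retroviral DNA with the HUSH complex, rose at 6 h in both lines (0.29, SE 0.0563, and 0.31, SE 0.0557). ZNF512 fell slightly at 2 h, by 0.31 in PEO1 BRCA2+ and 0.39 in PEO4 on the log2 scale. Of the ribosome-linked genes, ZNF598 rose in PEO4 at 6 h (0.56, SE 0.0498) after a fall at 2 h (-0.2, SE 0.05), and ZNF622 differed between the lines by -0.55 at 2 h and -0.86 at 6 h. ZNF593 (0.36 and 0.39) and ZNF706 (0.46 and 0.31) rose in PEO4 at 2 h and 6 h. ZNF609, a transcriptional partner of the cohesin loader, fell at 2 h in PEO4 (-0.39) and stood above its start at 6 h (0.44). ZNF746 was lower in PEO4 in both untreated pairs (-0.57 and -0.48), ZNF668 was lower in the A pair (-0.38) and at 2 h of PDS in PEO1 BRCA2+ (-0.38), and ZNF568 was higher in PEO4 in both pairs (0.34 and 0.52).

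A broader list of 25 KRAB cofactors and heterochromatin partners, all tested, was followed as well. In the A pair 10 were higher and 7 lower in PEO4 on the adjusted p alone, where 30.1% and 31.6% of all genes were. In the B pair 6 were higher and 10 lower, where 34.0% and 34.6% of all genes were, and the medians were 0.01 in A and -0.07 in B. TRIM28 stood at -0.24 in A and 0.01 in B on the log2 scale, and SETDB1 at 0.24 and 0.06. HDAC1 was higher in both (1.03 and 0.96), as was ZMYND8 (1.31 and 0.97), and UHRF1, which reads hemimethylated DNA, was lower in both (-0.57 and -0.88). After PDS none of the 25 passed the fold threshold in the 4 comparisons with untreated cells, also with 0 at an unadjusted p below 0.05 and 0 in DESeq2. Of all genes, 1.18% were called higher and 6.39% lower in PEO1 BRCA2+ at 2 h, and 1.29% and 6.83% at 6 h. In PEO4 these shares were 6.4% and 11.0% at 2 h and 6.26% and 16.3% at 6 h. After 6 h, on the adjusted p alone, 13 of the 25 were higher and 5 lower in PEO1 BRCA2+, where 27.0% and 26.0% of all genes were. In PEO4 15 were higher and 4 lower, where 34.6% and 35.2% of all genes were. MPHOSPH8, the HUSH subunit that reads H3K9me3, rose by 0.51 at 2 h and 0.72 at 6 h in PEO1 BRCA2+. In PEO4 its log2 fold change was 0.73 at 2 h and 0.48 at 6 h. The HP1 gene CBX5 fell by 0.69 and 0.64 at 6 h in PEO1 BRCA2+ and PEO4. The other HP1 genes of the list rose at 6 h in the same lines, CBX3 by 0.49 and 0.6 and CBX1 by 0.2 and 0.28. At 6 h TRIM28 stood at 0.18 in PEO1 BRCA2+ and 0.26 in PEO4, and SETDB1 at 0.06 and -0.29. These examples were chosen after their values were seen.

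Because PDS binds G4s, the promoters of the members were searched for a G-run pattern, 4 runs of at least 3 G with 1 to 7 bases between them, on both strands of the 250 bases before and 50 bases after the RefSeq start. It was present in 30 of 172 members with a promoter sequence (17.4%) and in 24.1% of 27305 promoters of all genes. The upstream 250 bases of 5 promoters are shown 5′ to 3′ from RefSeq GRCh38.p14, because they span the pattern's range among genes that PDS moved. Capitals mark matches taken without overlap, so lower-case bases between capitals in ZNF514 can lie inside a further, overlapping match. ZNF514 and ZNF709 hold it, and ZNF503, ZNF560 and ZNF792 have no match in this window. Between 2 h and 6 h in PEO4 both ZNF514 and ZNF709 rose, and so did ZNF503 without a match (log2 fold change 0.46). ZNF608 and ZNF644, not shown, have no match in the window either and rose in PEO4 against untreated cells. For ZNF709 that rise followed a fall, with 0.663 CPM per kilobase in untreated PEO4, 0.27 at 2 h and 0.565 at 6 h. ZNF514 stood at 0.865, 0.874 and 1.96 CPM per kilobase in the same groups.
ZNF514 (chr2:95159586-95159835, minus strand): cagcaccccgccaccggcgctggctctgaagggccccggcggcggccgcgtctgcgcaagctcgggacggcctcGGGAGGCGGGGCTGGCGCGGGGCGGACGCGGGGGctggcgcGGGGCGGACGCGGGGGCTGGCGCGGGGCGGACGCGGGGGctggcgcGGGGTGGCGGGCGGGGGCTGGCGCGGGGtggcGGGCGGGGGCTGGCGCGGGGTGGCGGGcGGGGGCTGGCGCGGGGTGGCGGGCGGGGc
ZNF709 (chr19:12484817-12485066, minus strand): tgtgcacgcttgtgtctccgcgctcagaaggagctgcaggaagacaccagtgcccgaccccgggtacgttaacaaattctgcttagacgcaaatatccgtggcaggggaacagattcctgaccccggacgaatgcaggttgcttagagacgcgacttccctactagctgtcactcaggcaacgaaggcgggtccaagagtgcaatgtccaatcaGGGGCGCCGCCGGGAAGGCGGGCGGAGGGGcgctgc
ZNF503 (chr10:75401917-75402166, minus strand): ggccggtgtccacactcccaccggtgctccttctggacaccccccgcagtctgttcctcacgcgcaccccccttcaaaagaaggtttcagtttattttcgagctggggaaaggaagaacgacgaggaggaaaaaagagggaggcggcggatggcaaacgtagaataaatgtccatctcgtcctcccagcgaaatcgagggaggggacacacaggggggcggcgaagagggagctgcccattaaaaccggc
ZNF560 (chr19:9498617-9498866, minus strand): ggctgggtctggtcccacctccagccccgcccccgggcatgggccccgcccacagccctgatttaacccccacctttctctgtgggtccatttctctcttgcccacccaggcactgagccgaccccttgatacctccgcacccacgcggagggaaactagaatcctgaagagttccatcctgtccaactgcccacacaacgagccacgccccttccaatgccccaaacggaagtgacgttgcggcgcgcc
ZNF792 (chr19:34964230-34964479, minus strand): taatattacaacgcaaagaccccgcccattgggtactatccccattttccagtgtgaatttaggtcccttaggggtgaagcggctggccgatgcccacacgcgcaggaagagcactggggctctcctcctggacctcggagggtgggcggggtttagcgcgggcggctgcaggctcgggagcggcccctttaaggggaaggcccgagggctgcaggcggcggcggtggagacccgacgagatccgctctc

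Within the members, those with the pattern leaned lower after PDS than those without it. Of all tested genes, 26.4% were higher and 26.2% lower on the adjusted p alone in PEO1 BRCA2+ at 2 h, and 27.0% and 26.0% at 6 h. In PEO4 these shares of all genes were 33.3% and 32.0% at 2 h and 34.6% and 35.2% at 6 h. The share of lower members with the pattern in PEO4 at 6 h, 31.0%, was thus below that of all genes. In PEO1 BRCA2+ at 2 h, 0 of 29 tested members with the pattern were higher and 12 lower on the adjusted p alone (41.4%), with 1 higher at an unadjusted p below 0.05 and 0 in DESeq2, where 28 of 134 without it were higher and 33 lower (20.9% and 24.6%). In PEO4 at 2 h, 3 of 29 were higher and 14 lower (10.3% and 48.3%), where 38 and 40 of the 134 were (28.4% and 29.9%). Their medians at 2 h were -0.2 and -0.25 in the respective lines with the pattern and 0.00 and 0.05 without. Over all tested genes the same division was smaller, with medians at 2 h of -0.05 with and 0.04 without the pattern in PEO1 BRCA2+ and -0.02 and 0.06 in PEO4. At 6 h in PEO1 BRCA2+, 1 of 29 members with the pattern was higher and 9 lower (3.45% and 31.0%, median -0.18), where 31 and 24 of the 134 without it were (23.1% and 17.9%, median 0.06). At 6 h in PEO4, 6 of 29 were higher and 9 lower (20.7% and 31.0%, median -0.1), where 42 and 31 of the 134 were (31.3% and 23.1%, median 0.04). Promoters with the pattern had a median of 66.0% G and C among the members and 69.7% among all genes, and those without it 59.9% and 53.7%, and the part of base composition in these counts was not tested.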

How the data were processed

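Poly(A) RNA was sequenced from 3 biological replicates of each group. Per the labels and the study's methods, the authors used FastQC, fastp, STAR on hg38 and featureCounts; versions, annotation and strand setting are not given in the sources used here. The deposited values are raw read counts per gene in 2 tables, 1 for the 6 A and 1 for the 18 B libraries. In all, 2 and 1 lines could not be read and were dropped, and 0 sample columns went unused.

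Each table was fitted on its own over all its groups with edgeR 4.0.16 (R 4.3.3): filterByExpr at its defaults (minimum count 10), TMM scaling, the robust quasi-likelihood test, 1 mean per group, no replicate block, and Benjamini-Hochberg adjustment over all 15882 (A) or 17020 (B) tested genes. A call needed an adjusted p below 0.05 and an absolute log2 fold change above 1. Levels are TMM-scaled CPM, and SEs were derived from the F statistic. The scripts were tested on simulated counts. With depths from 18.7 to 63.9 M counts, precision is limited for members below about 1 CPM; counting intervals cover counting error only.

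Coordinates, KRAB and finger patterns, shared 100-base words and promoters came from RefSeq GRCh38.p14 and GENCODE 44. Members, gene lists and tests were chosen with earlier results of these data known. Named genes were the largest calls in each direction without overlap of libraries and with a mean log2 CPM of at least 0 (6 per line comparison, 4 per PDS comparison, 3 per 6 h against 2 h and line difference, without the overlap condition for the last), the 5 strongest expressed members per kilobase, members called alike in both untreated pairs, and genes with a known role; further names are marked. The values of 1 marker gene are not reported here. Alternatives were library totals, DESeq2 size factors and its Wald test (DESeq2 1.42.0), a filter of at least 1 count, the adjusted p alone, fits of the compared groups only, a replicate block and leaving out each library.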

Additional observations from a re-analysis of the deposited data

Results flagged for a closer look

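The response to PDS differed between PEO4 and PEO1 BRCA2+ for several members, by the interaction term of the edgeR fit with an adjusted p below 0.05 and a difference of more than 1 on the log2 scale. Differences are given as the response of PEO4 minus that of PEO1 BRCA2+. At 2 h they were -1.91 for ZNF704, -1.51 for ZNF703, 1.08 for ZNF608, 1.22 for ZNF556 and 2.92 for ZNF560. At 6 h they were -2.93 for ZNF704, -2.23 for ZNF750, -1.72 for ZNF703, -1.32 for ZNF554, 1.01 for ZNF514, 1.04 for ZNF513, 1.17 for ZNF556, 1.32 for ZNF608 and 2.53 for ZNF560. ZNF556 was close to the limit, with edgeR adjusted p = 0.046 at 2 h and 0.044 at 6 h, and had 8, 5 and 6 counts in the untreated PEO1 BRCA2+ libraries. The ZNF750 difference at 2 h was -1.0 (SE 0.546, edgeR adjusted p = 0.16). Untreated PEO4 replicate 2 held less ZNF704 and ZNF703 than the other untreated PEO4 libraries, and without it the 6 h differences were -3.23 for ZNF704 and -1.95 for ZNF703.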

How the results depend on the processing

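The replicate numbers were shared by the groups but did not pair the libraries throughout. Deviations of same-numbered libraries correlated between -0.0654 and 0.0866 in the A table. In the B table they correlated between -0.295 and 0.526 (median 0.0153), with 7 of 45 pairs over 0.1. Whether some groups were handled together was not tested. With the replicate block all 20 counts of called members stayed within 1.5 times, for instance 22 higher and 7 lower in the B pair. The counts also stayed so with DESeq2 size factors, the DESeq2 Wald test, a filter of at least 1 count and fits of the compared groups only.

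Library totals lowered the medians of the 4 comparisons of PDS with untreated cells, moving the median of all genes at 6 h in PEO4 from -0.03 to -0.19 on the log2 scale. The member medians were then -0.21 and -0.13 at 2 h and 6 h in PEO1 BRCA2+, -0.15 and -0.18 in PEO4, and -0.02 for 6 h against 2 h in PEO4. Relative to all genes, the member medians of these 4 comparisons stood at -0.04, 0.04, -0.02 and 0.01 under totals and at -0.04, 0.05, -0.02 and 0.01 under TMM. Under totals 5 members were lower in PEO1 BRCA2+ at 6 h, 2 higher and 12 lower in PEO4 at 6 h, and 5 had a higher response in PEO4 at 2 h. On the adjusted p alone, higher and lower members numbered 78 and 25 in the A pair, 107 and 30 in the B pair, 29 and 55 and then 34 and 41 in PEO1 BRCA2+ at 2 h and 6 h, 46 and 69 and then 53 and 51 in PEO4, 21 and 6 for 6 h against 2 h in PEO1 BRCA2+ and 65 and 49 in PEO4, and 27 and 18 and then 32 and 32 for the line differences at 2 h and 6 h.

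Leaving out each library gave member medians from 0.13 to 0.24 in the A pair, 0.02 to 0.06 in PEO1 BRCA2+ at 6 h, -0.07 to 0.01 in PEO4 at 2 h, -0.04 to 0.01 in PEO4 at 6 h, 0.03 to 0.07 and 0.01 to 0.05 for 6 h against 2 h in PEO1 BRCA2+ and PEO4, and -0.02 to 0.07 for the line difference at 6 h. Counts ran from 1 to 3 higher and 2 to 4 lower for 6 h against 2 h in PEO4, with both extremes without 2 h replicate 3. The line difference at 2 h gave 2 to 4 lower members, with 4 without untreated PEO1 BRCA2+ replicate 3 or untreated PEO4 replicate 1. At 6 h it gave 3 to 5 higher, with 3 without untreated PEO1 BRCA2+ replicate 1 or 3, untreated PEO4 replicate 1 or PEO4 6 h replicate 3. Of the 55 named gene results, 47 kept their call throughout, 8 lost it under at least 1 setting and 0 reversed. The cause of these changes was not tested.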

Other observations

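The number of fingers did not order the line difference. In the untreated B pair the median log2 fold change of PEO4 over PEO1 BRCA2+ was 0.26 for 24 tested members with 0 to 4 fingers, 0.35 for 66 with 5 to 9, 0.34 for 66 with 10 to 14 and 0.33 for 36 with 15 or more. By the adjusted p alone, 20 of the 36 with 15 or more fingers were higher and 2 lower in that pair (55.6% and 5.56%), where 55.2% and 15.5% of all members were, and 18 and 2 of the 36 in the A pair, where 40.2% and 12.9% of members were. After PDS, in the same order of classes, 10 of 24, 21 of 66, 17 of 66 and 7 of 36 members were lower at 2 h in PEO1 BRCA2+, where 26.2% of all genes were, and 9, 12, 15 and 5 at 6 h, where 26.0% were. In PEO4 15, 25, 20 and 9 were lower at 2 h, where 32.0% of all genes were, and 11, 14, 18 and 8 at 6 h, where 35.2% were.

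The share of all counts that fell on the 207 members was 0.399% ± 0.00656 in untreated PEO1 BRCA2+, 0.336% ± 0.00666 at 2 h and 0.353% ± 0.00757 at 6 h (SD, n = 3). In PEO4 it was 0.477% ± 0.0166, 0.382% ± 0.00889 and 0.413% ± 0.00265. Every untreated library lay above every PDS library of its line. This share is relative to the library total, and on TMM-scaled counts the member medians moved by no more than 0.06.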
